A study of Mus musculus with 4 samples.

Results

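The mitochondrial ribosomal protein genes are the nuclear genes named Mrpl or Mrps followed by a number. They were taken from the mm10 gene annotation of the series as every row on an assembled chromosome whose name has that form, without use of any measured value. This gave 142 of 47116 rows and 78 of 26125 gene symbols, with 49 genes named Mrpl and 29 named Mrps, and 0 names marked as pseudogenes. All 78 had a coding row and all 78 symbols matched a current symbol of the RefSeq gene table of GRCm38.p6.

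The study mapped RNA polymerase I, the enzyme that transcribes ribosomal DNA, with CUT&Tag, in which an antibody brings a transposase to chromatin. The cells were C64 mouse embryonic stem cells, 2 libraries without treatment and 2 libraries given auxin at 500 nM for 6 h. Auxin removes proteins that carry a degron tag, and the labels name no tagged protein and do not say whether libraries of a group came from separate cultures. Signal per library was not analysed here and its depth is unknown, so the values describe the annotation, carry no replicate error and give neither a comparison of auxin with control nor a check of the cell type by its markers.

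The mitochondrial ribosome sits in the mitochondrial matrix and makes the few proteins that mitochondrial DNA encodes, which are core subunits of the respiratory chain and of ATP synthase. Its rRNAs come from mitochondrial DNA, whereas its proteins are encoded in the nucleus, transcribed by RNA polymerase II, made on cytosolic ribosomes and imported. Most proteins of the large subunit are named Mrpl and most of those of the small subunit Mrps, with some exceptions and some proteins under other names. Some descend from the ribosome of the bacterial ancestor of mitochondria and others were added later. A pair of genes transcribed away from each other from neighbouring starts is called head-to-head, and such genes can share promoter DNA.

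The 78 genes were compact, with short untranslated ends. Each gene was described by 1 row, the coding row with the longest coding sequence. The median span was 7224.5 bases, beside 16278 bases over all 20992 coding genes of the annotation (the 78 included), and 64 of the 78 lay below the latter value. The shortest were Mrpl53 (825 bases) and Mrpl34 (828 bases), followed by Mrpl36 and Mrps34 with 1170 bases each and Mrpl43 with 1429 bases. Mrpl34 and Mrpl36 encode counterparts of the small bacterial proteins L34 and L36. In all, 73.1% of the 78 genes spanned less than 10000 bases, against 37.5% of all coding genes.

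Only 5 genes spanned more than 50000 bases, and their length lay in introns. Mrps28 was the longest at 121712 bases on chromosome 3 (8802146 to 8923857, minus strand), although it had 3 exons and 722 exonic bases. Mrps27, a protein with pentatricopeptide repeats, spanned 70776 bases on chromosome 13 with 11 exons. Mrpl1 spanned 56613 bases with 9 exons and Mrps9 54451 bases with 11 exons. Mrps6 spanned 53892 bases with 3 exons, and its first intron alone held 41113 bases. Mrps28, the longest gene, had 561 coding bases, fewer than the 657 of Mrps34, which is among the shortest.

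**Figure D1:**
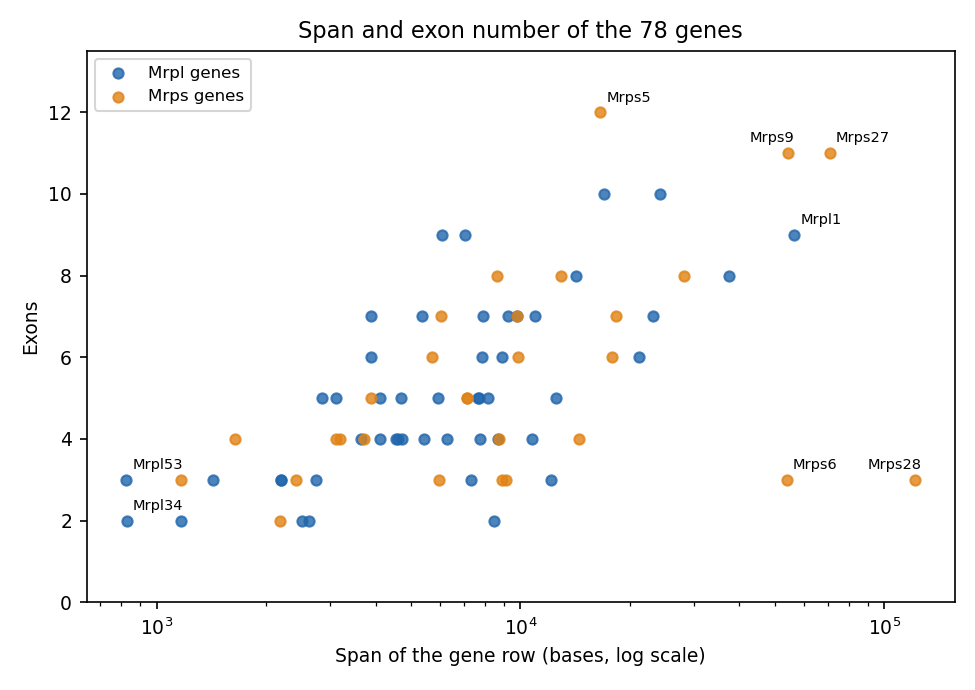
Span of each gene's row in bases (log axis) against its number of exons, 1 point per gene, blue for Mrpl and orange for Mrps. Most points lie below 10000 bases with 3 to 7 exons, while Mrps6 and Mrps28 stand at the right with 3 exons each.

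Exon number had a median of 5, beside 7 over all coding genes. None of the 78 genes had a single exon, whereas 10.3% of all coding genes did. The fewest were 2 exons, in 6 genes (Mrpl34, Mrpl36, Mrpl41, Mrpl50, Mrpl57 and Mrps12), and the most were 12 exons in Mrps5 and 11 in Mrps9 and Mrps27. Mrps12 is the counterpart of bacterial S12, a protein of the decoding centre, and Mrps5 that of S5. The coding sequences ran from 65 codons in Mrpl33 to 442 codons in Mrps30, with a median of 194 codons beside 406 over all coding genes. Mrps30 carries a small-subunit name but is located in the large subunit. The 319 introns within coding sequence were in phase 0 (between codons) in 42.3% of cases, in phase 1 in 32.6% and in phase 2 in 25.1%, close to the 45.6%, 32.4% and 22.1% over all coding genes.

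The 5' UTR, the transcribed stretch before the start codon, had a median length of 57 bases in the 78 genes and of 136 bases over all coding genes. In 63 of the 78 it was shorter than the latter median. It was under 50 bases in 33 genes (42.3%), beside 21.0% of all coding genes. In 12 it was shorter than 20 bases, a count not made over all coding genes. The shortest were 2 bases in Mrps5 and 4 bases in Mrpl53, and Mrpl27 and Mrps18c had 11 bases each. The longest were 501 bases in Mrpl20, 328 in Mrps17, 295 in Mrpl55, 286 in Mrps12 and 234 in Mrpl41. The start codon lay in the first exon in 66 genes (84.6%), beside 67.0% of all coding genes. These lengths depend on where the annotation sets the start of each row, which was not measured here.

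The 3' UTR had a median of 304.5 bases, beside 685 bases over all coding genes. It ranged from 19 to 6075 bases, beside 0 to 18877 bases over all coding genes. Mrps15 had 19 bases and Mrpl52 had 22 bases after the stop codon. At the other end stood Mrpl17 with 6075 bases, Mrps25 with 5510, Mrpl19 with 4115, Mrpl48 with 3529 and Mrpl15 with 3266. The upper quartile was 855.5 bases, beside 1650 bases over all coding genes. The 3' UTR exceeded 1000 bases in 17 genes and the coding sequence in 27, counts not made over all coding genes. For Mrpl17 it was 6075 of 6712 exonic bases, while the protein it follows has 176 amino acids. In all 78 genes the stop codon lay in the last exon, as it did in 95.9% of all coding genes.

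**Figure D2:**
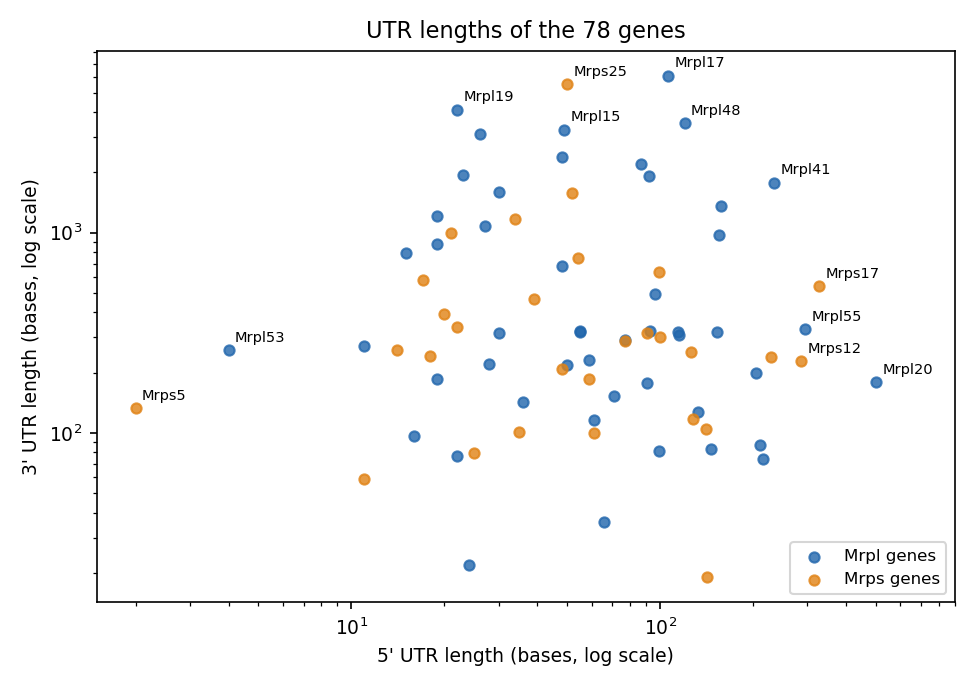
Length of the 5' UTR against length of the 3' UTR, both in bases on log axes, 1 point per gene, blue for Mrpl and orange for Mrps. The 3' UTR ranges from 19 to 6075 bases, and genes with a 3' UTR over 3000 bases have 5' UTRs of 22 to 120 bases.

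Genes of both names are set side by side here without a test. Median span was 6297 bases for Mrpl and 8720 bases for Mrps genes, both with a median of 5 exons, and the median 5' UTR was 61 and 52 bases. By origin, 48 genes code for a protein with a counterpart in the bacterial ribosome (a bacterial counterpart, for short) and 30 do not. This split follows a list drawn from general knowledge of the mitochondrial ribosome. Their median spans were 6801.5 and 7446 bases and their median exon numbers 5 and 4. The cytosolic ribosomal protein genes (83 genes) differed more in layout, with a median span of 2969 bases, 5 exons, a 5' UTR of 78 bases and a 3' UTR of 69 bases. The genes for subunits of oxidative phosphorylation (86 genes), whose products work beside those of the mitochondrial ribosome, had a median span of 7080.5 bases, 4 exons, a 5' UTR of 76 bases and a 3' UTR of 148 bases.

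The paralogs Mrps18a, Mrps18b and Mrps18c, which all resemble bacterial S18, were laid out differently. Mrps18a lay on chromosome 17 (46111004 to 46128908, plus strand) with 17905 bases and 6 exons, and its product is a protein of the large subunit. Mrps18b lay on the same chromosome (35910380 to 35916440, minus strand) with 6061 bases and 7 exons. Mrps18c lay on chromosome 5 (100798759 to 100804467, plus strand) with 5709 bases and 6 exons. They encode 196, 254 and 143 amino acids, so the sizes fall in the order Mrps18b, Mrps18a, Mrps18c. Mrps18b had 5 rows that differ in coding sequence, whereas the other two had 1 row each.

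Most genes were annotated simply, as were most coding genes in general. A single row was given for 51 of the 78 (65.4%), beside 59.4% of all coding genes. A single start was given for 71 (91.0%), beside 82.3%. Mrps17 had the most rows (8), all from 1 start and with 1 coding form. Mrpl48 had 7 rows from 4 starts, of which 6 were non-coding. Its coding row spanned 37352 bases, while the rows together covered 62523 bases (chromosome 7, minus strand). Mrps23 had 6 rows from 2 starts, with a coding row of 7120 bases inside a locus of 17402 bases. In these 2 genes the most upstream start is thus far from the start of the row with the longest coding sequence.

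The 78 genes were spread over 17 of the 21 assembled chromosomes. Chromosome 11 held 11 genes, chromosome 17 held 8, chromosome 6 held 7 and chromosome 7 held 6. None lay on chromosomes 12, 18, X or Y, which have 623, 503, 902 and 77 coding genes. Set against the number of coding genes, chromosome 17 had the most (7.79 per 1000), followed by chromosome 19 (7.17), on which all 5 were Mrpl genes, and chromosome 11 (6.95). Among chromosomes that held any, chromosome 15 had the fewest, with Mrpl13 alone (1.32 per 1000). Mrpl46 and Mrps11 on chromosome 7 were the only 2 with no coding gene between them. The next closest in bases, Mrpl58 and Mrps7 on chromosome 11, were 191465 bases apart with 10 coding genes between them. Mrpl14 and Mrps18a on chromosome 17 were 412508 bases apart with 2 coding genes between them.

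**Figure D3:**
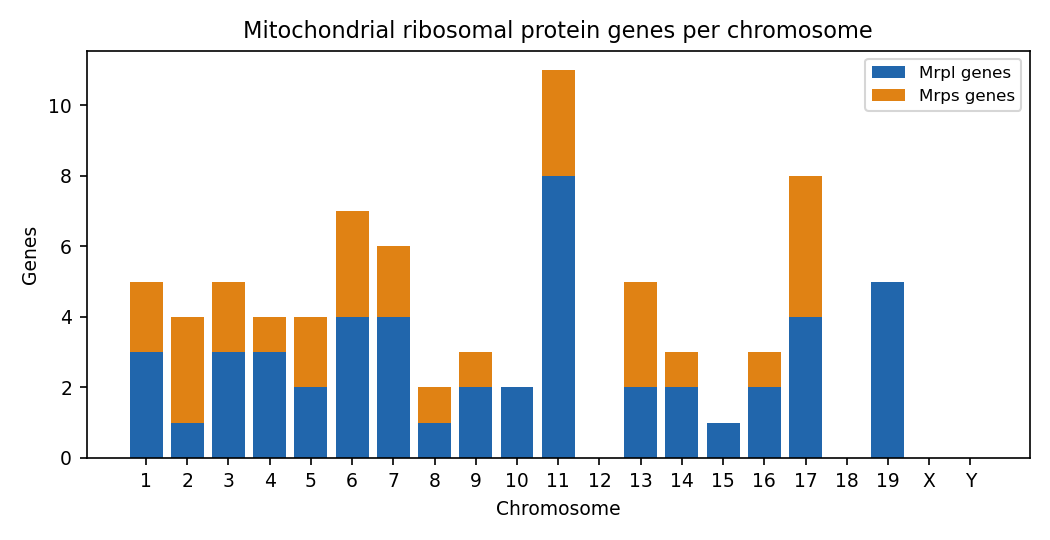
Number of mitochondrial ribosomal protein genes on each assembled chromosome, with Mrpl genes in blue and Mrps genes in orange. Chromosome 11 has 11 genes, and chromosomes 12, 18, X and Y have 0.

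For each gene the nearest start of another gene on the opposite strand was located, taking as a gene's start the most upstream base of any of its rows. A gene was called head-to-head when that start lay within 1000 bases and either faced away without overlap (divergent) or belonged to a gene whose 5' end overlapped. Of the 78 genes, 31 (39.7%) were head-to-head, beside 13.2% of all coding genes (2775 of 20992). In 29 of them the pair was divergent and in 2 the 5' ends overlapped. The 31 genes formed 30 pairs, because Mrpl46 and Mrps11 were paired with each other. In all 31 cases the member was also the nearest opposite-strand start of its partner. This was not counted for the pairs of all coding genes, and starts within 1000 bases leave little room for a nearer one. The partner was protein-coding in 28 cases and a long non-coding RNA (lncRNA) in 3. The same rule gave 28 of 86 oxidative phosphorylation subunit genes (32.6%) and 16 of 83 cytosolic ribosomal protein genes (19.3%). These shares are descriptions of the annotation, and no test between the groups was made.

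The median distance within the pairs was 131 bases from start to start. It was 180 bases in the pairs of all coding genes, 113 bases in those of oxidative phosphorylation genes and 94 bases in those of cytosolic ribosomal protein genes. Of the 31 genes, 12 were under 100 bases from the partner's start, 12 were between 100 and 300 bases and 7 were farther. The 47 genes outside pairs had their nearest opposite-strand start at a median of 25944 bases. Near the limit of 1000 bases, Mrpl41 lay inside it at 935 bases from Pnpla7, and Mrpl54 (1246 bases from Apba3), Mrpl34 (1269 bases from Abhd8) and Mrps2 (1742 bases from 1700007K13Rik) lay outside. The most isolated starts were those of Mrps23, 195808 bases from Dynll2, and Mrps30, 168916 bases from the lncRNA gene 1700003P14Rik.

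**Figure D4:**
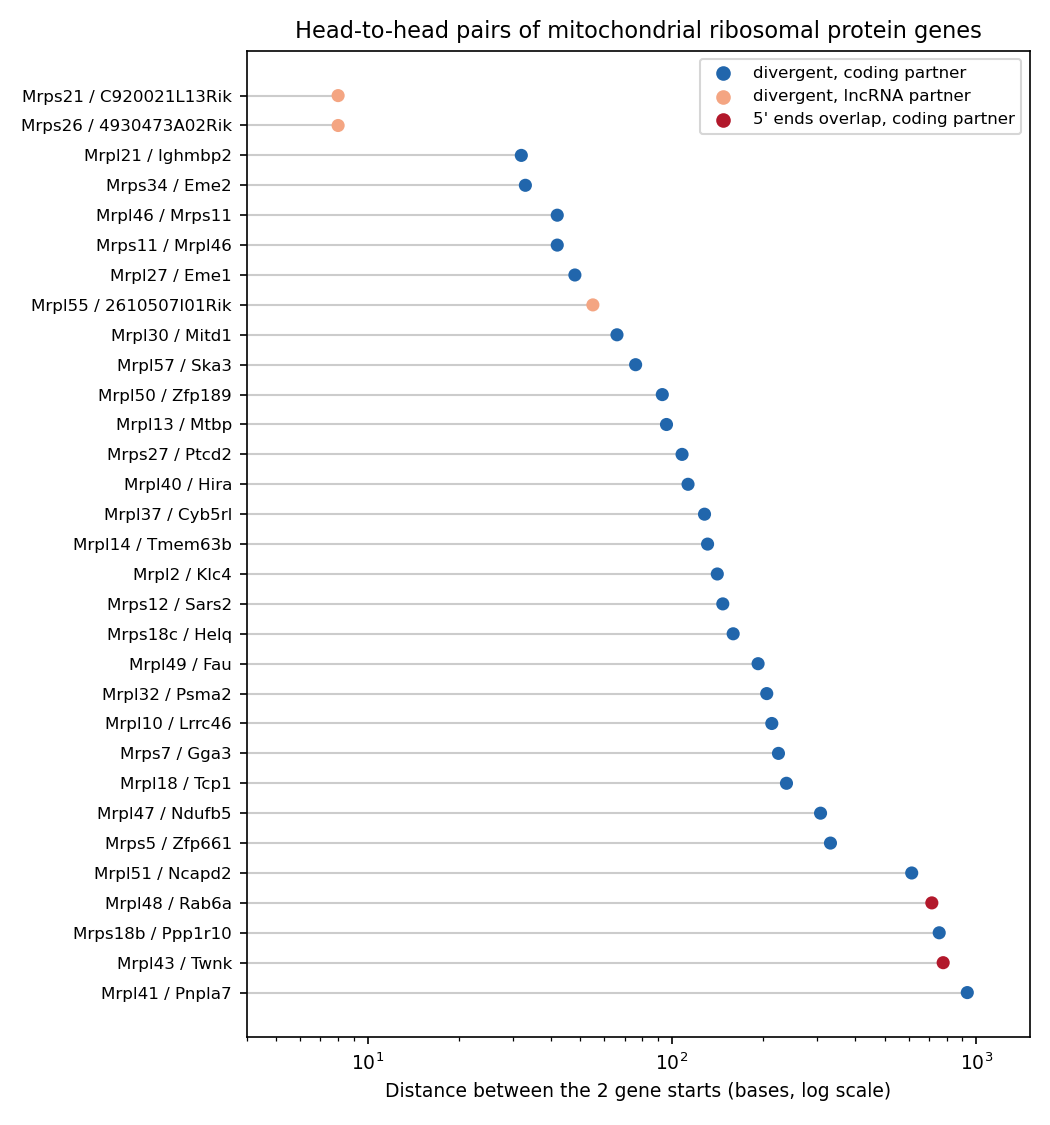
Distance in bases (log axis) between the start of each of the 31 head-to-head genes and its partner's start, closest at the top, with colours for divergent pairs with a coding partner, divergent pairs with a lncRNA partner and pairs whose 5' ends overlap. The distances run from 8 to 935 bases, and Mrpl46 and Mrps11 appear on a line each because they are partners of each other.

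The closest pairs left almost no DNA between the starts. Mrps21, the counterpart of bacterial S21, started at position 95871514 of chromosome 3 (minus strand) and the lncRNA gene C920021L13Rik at 95871522, so 7 bases lay between them. Mrps26 started at 130563757 of chromosome 2 (plus strand), with 7 bases to the lncRNA gene 4930473A02Rik. Among coding partners, Mrpl21 (chromosome 19, 3283042) was separated by 31 bases from Ighmbp2, which encodes a helicase. Mrps34 (chromosome 17, 24895120) was separated by 32 bases from Eme2, and Mrpl27 (chromosome 11, 94653791) by 47 bases from Eme1. Eme1 and Eme2 encode related subunits of DNA endonucleases, and they are singled out here after their values were seen. The bases just upstream of the member's start are shown for Mrps21, Mrps26, Mrpl21 and Mrpl27, and for Mrps11, whose pair with Mrpl46 is described next, as the DNA that the paired starts share. They are read 5' to 3' on the member's strand from the RefSeq promoter table of GRCm38.p6, the whole gap where it is 7 bases and the 30 bases before the start for the others, with a GC box (GGGCGG) in capitals where present.
Mrps21 gap, chr3:95871515-95871521, minus strand: ccgtcgc
Mrps26 gap, chr2:130563750-130563756, plus strand: gccgggc
Mrpl21 upstream, chr19:3283012-3283041, plus strand: gtttgtgtgttgacgcacaaggttcgcgct
Mrps11 upstream, chr7:78783101-78783130, plus strand: cgcgggccggcgagGGGCGGgtttaccgag
Mrpl27 upstream, chr11:94653761-94653790, plus strand: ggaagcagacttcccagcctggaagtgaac

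Mrpl46 and Mrps11 were the only pair within the set. Mrpl46 started at 78783089 of chromosome 7 on the minus strand and Mrps11 at 78783131 on the plus strand, with 41 bases between them, of which 73.2% were G or C. Mrps11 is the counterpart of bacterial S11, and Mrpl46 has no bacterial counterpart. The pair thus joins a gene of the small subunit to a gene of the large subunit. The 41 bases held 1 GC box.

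Some other partners also encode mitochondrial proteins (picked out after their names were seen). Mrps12 was divergent from Sars2, the mitochondrial seryl-tRNA synthetase, at 147 bases on chromosome 7. Mrps27 was divergent from Ptcd2, a mitochondrial pentatricopeptide protein, at 108 bases on chromosome 13. Mrpl47 was divergent from Ndufb5, a subunit of respiratory complex I, at 308 bases on chromosome 3. Mrpl43 overlapped the 5' end of Twnk, the helicase that replicates mitochondrial DNA, over 780 bases of chromosome 19 (45005663 to 45006442). The whole of Mrpl43 spans 1429 bases.

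Further partners belong to other processes. They are grouped here after their names were seen, without a count of such genes among all partners or all coding genes. Mrpl49 was divergent at 192 bases from Fau, which encodes a cytosolic ribosomal protein fused to a ubiquitin-like protein. Mrpl32 and Psma2, a proteasome subunit, were 205 bases apart, and Mrpl18 and Tcp1, a subunit of the cytosolic chaperonin, were 238 bases apart. Chromosome and cell cycle genes were also among the partners, with Ska3 of the kinetochore at 76 bases from Mrpl57, Hira, a histone chaperone, at 113 bases from Mrpl40, and Ncapd2 of condensin at 614 bases from Mrpl51. Mrps18c lay 159 bases from Helq, a DNA helicase, and Mrps18b lay 756 bases from Ppp1r10, a regulatory subunit of protein phosphatase. The same Mrps18b and Ppp1r10 distance of 756 bases recurred on 2 alternate contigs of chromosome 17, and the 113 bases between Mrpl40 and Hira recurred on an alternate contig of chromosome 16.

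The remaining divergent pairs were Mrpl55 with the lncRNA gene 2610507I01Rik (55 bases), Mrpl30 with Mitd1 (66), Mrpl50 with Zfp189 (93), Mrpl13 with Mtbp (96), Mrpl37 with Cyb5rl (128), Mrpl14 with Tmem63b (131) and Mrpl2 with Klc4 (141). Farther apart were Mrpl10 with Lrrc46 (213), Mrps7 with Gga3 (224) and Mrps5 with Zfp661 (332). Mrpl48 and Rab6a, a GTPase of the Golgi, overlapped over 716 bases. This last pair rests on a non-coding row of Mrpl48, and it was the only 1 of the 31 that was lost when the start of the row with the longest coding sequence was used.

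**Figure D5:**
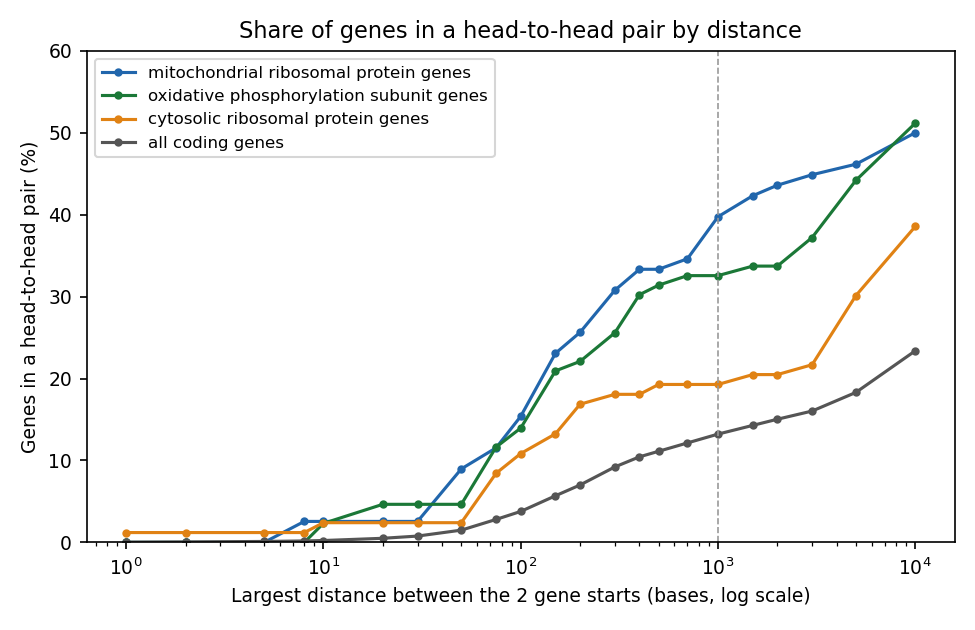
Percentage of genes in a head-to-head pair (y axis) as the largest allowed distance between the starts grows (x axis, bases, log scale), for the mitochondrial ribosomal protein genes, 2 related groups and all coding genes, with the limit of 1000 bases dashed. At that limit the values are 39.7%, 32.6% (oxidative phosphorylation), 19.3% (cytosolic ribosomal proteins) and 13.2% (all coding genes).

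Membership in a pair was seen among genes of both names, which do not always match the subunit. It held for 21 of 49 Mrpl genes (42.9%) and 10 of 29 Mrps genes (34.5%), and for 18 of 48 genes with a bacterial counterpart (37.5%) and 13 of 30 without (43.3%). The 31 paired genes had a median span of 6061 bases and a median 5' UTR of 61 bases, and the other 47 had 7714 and 55 bases. Other genes of mitochondrial translation were looked at by lists. Of 6 listed genes for mitochondrial ribosomal proteins with other names, 5 had a row, since Ict1 is an older name of Mrpl58. Of the 5, Gadd45gip1 (17 bases from Dand5), Chchd1 (72 bases) and Ptcd3 (291 bases from Polr1a, the largest subunit of Pol I) were head-to-head, while Dap3 and Aurkaip1 were not. Of 25 genes for assembly of the mitochondrial ribosome and modification of its rRNA, 10 (40.0%) were head-to-head, among them Ddx28 and Noa1. Of 13 genes for mitochondrial translation factors, 2 (15.4%) were, Gfm2 and Mrrf, a share near the 13.2% of all coding genes.

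Promoter sequence was available for 67 of the 78 genes, as windows of 250 bases before and 50 bases after the start. In all 67 the window's start coincided with the gene start in the annotation of the series. The windows held a median of 21 CpG beside 14 in the windows of 16494 coding genes, while G and C together made up a median of 58.0% and 56.7%. The 29 paired genes with a window had a median of 24 CpG and the 38 others 17. Coding genes in pairs in general also had a median of 24.

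Short sequences known as binding motifs of promoter factors were counted on both strands, whether or not they overlapped each other. NRF1, a regulator of nuclear genes for mitochondria, was searched as GCGC, any base, then TGCGC, and was found in 13 of 67 windows (19.4%), beside 6.92% of all coding windows. The ETS core CCGGAAG, bound by GABP among others, was found in 23 windows (34.3%), beside 12.3%. The YY1 letters AAGATGGC were found in 12 (17.9%), beside 3.32%. The motif of Ronin and ZNF143, searched as ACTACA, any 2 bases, then TCCCA, was found in 5 (7.46%), beside 2.37%. At least 1 of these 4 was present in 42 windows (62.7%), beside 21.9% of all coding windows. Each of the 4 stood above the background in these same windows, so the joint share is no separate evidence. The NRF1 and ETS letters contain CpG, of which these windows held a median of 21, beside 14 in all coding windows. The shares were not adjusted for this difference.

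Shares of CCAAT and GGGCGG were near the background, and that of TATAAA was below it. CCAAT was found in 26 of 67 windows (38.8%), beside 39.6% of all coding windows, and GGGCGG in 34 (50.7%), beside 47.8%. TATAAA was found in 4 (5.97%), beside 13.3%. Oxidative phosphorylation genes had NRF1 letters in 23.5% of 68 windows and ETS letters in 23.5%, and cytosolic ribosomal protein genes had them in 6.45% and 38.7% of 62 windows. YY1 letters were in 13.2% and 9.68% of the windows of these 2 groups. The Ronin and ZNF143 motif was in 8.82% and 3.23%. A match is a run of letters and not a measured binding site. The shares were not tested against each other.

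Among windows of the set, 20 of 29 paired genes (69.0%) and 14 of 38 others (36.8%) held a GC box. Coding genes in pairs in general held it in 66.7% of windows. CCAAT went the other way, in 8 paired genes (27.6%) and 18 others (47.4%), beside 41.9% of coding genes in pairs. ETS letters were found in 12 of the 29 (41.4%) and 11 of the 38 (28.9%), beside 26.4% of coding genes in pairs. YY1 letters were found in 7 (24.1%) and 5 (13.2%), beside 6.31%, and NRF1 letters in 6 (20.7%) and 7 (18.4%), beside 14.4%. The Ronin and ZNF143 motif was found in 1 (3.45%) and 4 (10.5%), beside 4.72%, and TATAAA in 1 (3.45%) and 3 (7.89%), beside 5.08%. The window of a close pair also holds bases of the partner gene.

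Most gaps between paired starts held neither NRF1 nor ETS letters in the bases covered by a window. None held YY1 letters or the Ronin and ZNF143 motif. Matches in the windows of paired genes thus often lay outside the gap. Gap length limits this count, since a window had 300 bases and the median distance between paired starts was 131 bases. The gaps of Mrps21 and Mrps26 had 7 bases each, too few for NRF1 or YY1 letters. No such count is given here for the gaps of all coding genes in pairs, so whether this set differs was not tested. The ETS letters of Mrpl21 and Mrps21, for instance, lay after the member's start. As examples of gaps that do hold such letters, 3 are shown, with the motif in capitals and each window read on the member's strand. The first holds NRF1 letters that read the same on both strands, between Mrpl32 and Psma2. The next holds NRF1 letters on the opposite strand between Mrpl57 and Ska3, and the last ETS letters on the opposite strand between Mrps27 and Ptcd2.
Mrpl32 gap, chr13:14613105-14613134, minus strand: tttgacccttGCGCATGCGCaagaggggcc
Mrpl57 gap, chr14:57826172-57826201, plus strand: tttgaatcctGCGCAGGCGCagaaggcgtc
Mrps27 gap, chr13:99344727-99344756, plus strand: tggtaggaccaCTTCCGGcggaggcgggct

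The place of the YY1 letters was examined after their matches were seen. They contain ATG, and in 6 of the 12 genes this ATG was the annotated start codon of the gene itself, at first bases 12 to 37 after the start. These were Mrpl35, Mrpl49, Mrps7, Mrps18a, Mrps24 and Mrps27, and 4 of them are shown with the YY1 letters in capitals. In 3 more, the letters lay upstream on the opposite strand and held the start codon of the head-to-head partner, namely Psma2 beside Mrpl32, Mrpl46 beside Mrps11 and Sars2 beside Mrps12. In the last 3, Mrpl36, Mrpl37 and Mrpl42, no annotated start codon lay in the match.
Mrps18a, chr17:46111004-46111033, plus strand: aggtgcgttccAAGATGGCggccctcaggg
Mrps27, chr13:99344789-99344818, plus strand: tggtgcgctccAAGATGGCggctcccatgg
Mrps7, chr11:115604147-115604176, plus strand: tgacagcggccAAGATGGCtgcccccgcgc
Mrpl49, chr19:6057721-6057750, minus strand: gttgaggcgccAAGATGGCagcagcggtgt

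Start codons within these letters were not limited to this set. Over all coding genes, 240 had the letters after the start in the sense direction and in 162 of them the ATG was the annotated start codon, beside 6 of 8 in the mitochondrial ribosomal protein genes. As a share of all windows, the letters held the gene's own start codon in 8.96% of the 67 and in 0.982% of all coding genes. They did so in 8 of 68 oxidative phosphorylation windows (11.8%) and in 1 of 62 cytosolic ribosomal protein windows (1.61%). Windows end 50 bases after the start, so start codons farther downstream were not counted. The 5' UTR was under 50 bases in 42.3% of mitochondrial ribosomal protein genes and in 21.0% of all coding genes. The counts and shares were not adjusted for this difference. Mrpl46, with a 5' UTR of 61 bases, was not counted, although its start codon lay in the letters in the Mrps11 window.

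At least 1 base on either strand was shared with another gene by 13 of the 78 (16.7%), near the 19.2% of all coding genes. In 6 of them the 3' ends met, with the longest shared stretch between Mrps25 and Nr2c2 (3547 bases, chromosome 6, 92169512 to 92173058), followed by Mrpl19 and Gcfc2 (1273 bases) and Mrpl24 and Rrnad1 (833 bases). In Mrps25 this stretch lies within the long 3' UTR. The 2 overlaps at 5' ends were those of Mrpl43 and Mrpl48 given above. On the same strand, Mrps6 shared 29138 bases with Slc5a3, an inositol transporter gene, and Mrpl53 and Mrps23 shared 14 and 35 bases with Ccdc142 and Cuedc1. Mrpl21 held the microRNA gene Mir6984 in an intron on the same strand, and Mrps27 held the lncRNA gene 6430562O15Rik on the opposite strand. Signal over these shared bases cannot be assigned to 1 gene from positions alone.

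Of the 78 genes, 6 also had a locus on an alternate or patch contig, namely Mrpl22, Mrpl40, Mrps10, Mrps18b, Mrps23 and Mrps35. The span there differed most from that on the assembled chromosome for Mrps23 on 1 contig (17630 against 17402 bases). Mrpl22 was placed on the minus strand of its alternate contig and on the plus strand of chromosome 11.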

How the data were processed

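CUT&Tag libraries of 4 samples (2 control, 2 auxin) belong to the series. The deposited table used here is a 12-column BED annotation, and its score column, as deposited, is 0 in every row. Its other columns, as deposited by the authors, hold positions and exon numbers. The build mm10 and the tools bedtools, deepTools, Bowtie2 and FastQC are listed, per the submitters' processing notes, without their roles. How the BED file was built is not given in the sources used here.

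The table was handled in Python 3.11.15 (numpy 2.4.6, pandas 2.3.3) and plotted in matplotlib 3.10.9. Gene positions are printed counted from 1. Rows of 1 symbol, chromosome and strand that share at least 1 base form a locus. The row per gene is the coding row with the longest coding sequence, then the longest summed exons. UTR lengths count exonic bases outside the coding part. Routines for nearest starts and overlaps were tested on simulated data of 600 intervals, with 0 differences from exhaustive search. Promoter sequences are RefSeq's (GRCm38.p6), used where they start within 50 bases of the gene start. A member without such a window entered no motif count.

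The gene set, lists and motifs were chosen with earlier results of these data known. Named genes follow a rule: the 5 longest and shortest spans, extremes of exon number, the 5 longest UTRs of each kind, all head-to-head pairs, the most isolated starts, the Mrps18 paralogs and genes on other contigs. Other genes named were picked after their values were seen, as was the check of start codons in motif matches. Alternatives covered the row per gene, distance limit, arrangement, partner class, gene start and overlap. No test between groups was run, because no value per library was analysed.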

Additional observations from a re-analysis of the deposited data

How the results depend on the processing

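No paired analysis was possible because values per library were not analysed here. Leaving out replicates was likewise not run. A result without a test was taken as stable when it stayed within 1.5 times its value. The count of 78 members became 142 when rows were counted and stayed at 78 with all contigs. Median span, exon number and UTR lengths stayed within that range for all rows, for the row with the longest summed exons and for the row with the fewest exons. The 5' UTR median ran from 57 to 77 bases. The 31 head-to-head genes became 24 within 300 bases, 26 within 500 and 34 within 2000, where all coding genes gave 9.21%, 11.1% and 15.0%. They became 29 for divergent pairs alone, 28 with coding partners alone and 30 with the start of 1 row per gene, where all coding genes gave 10.2%, 9.52% and 12.5%. With any row start they stayed at 31. The 13 genes that share a base with another gene became 12 for exons only and 4 on the same strand. They became 4 where the shared bases made up 50% or more of the shorter gene. These definitions admit fewer overlaps, and the shares of all coding genes under them are not given here.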
